A study of Mus musculus with 9 samples.

Results

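The genes described here are 8 fibroblast growth factor (FGF) genes of mouse epididymal adipose tissue: the secreted ligands Fgf1, Fgf2, Fgf7 and Fgf10, the intracellular factor Fgf14, and the receptors Fgfr1, Fgfr2 and Fgfr3. They were taken by gene symbol from the 32285 genes of each count matrix, and 8 rows matched. Droplet sequencing of nuclear RNA from the whole depot, the visceral fat beside the testis, gave 1 library for each of 9 diet groups of male C57BL/6J mice, each from 5 pooled mice. C, CC and CCC mice were on the control diet, named chow in the labels, and were 18, 26 and 39 weeks old. The study's methods add that C ate a low-fat control diet and that CC and CCC were later moved to another chow. H mice had 12 weeks of high-fat diet (HFD) and were 18 weeks old, and HH mice had 25 weeks of it and were 31 weeks old. Weight loss was brought about by 8 weeks of chow following the HFD, which had lasted 12 weeks in the HC mice, aged 26 weeks, and 25 weeks in the HHC mice, aged 39 weeks. CCH mice met HFD for the first time, for 4 weeks after 26 weeks of chow, and HCH mice met it again for 4 weeks after 12 weeks of HFD and 8 weeks of chow; both were 30 weeks old. A pool cannot show the spread between its mice.

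Secreted FGFs bind heparan sulfate and signal to neighbouring cells through receptor tyrosine kinases, which pass the signal on through the docking protein FRS2 to the RAS and MAP kinase pathway, while Sprouty proteins and DUSP6 damp it. FGF1 binds all the receptors, whereas FGF7 and FGF10 act through the epithelial splice form of FGFR2. In fat, FGF1 is known for its induction by feeding, FGF2 for the growth of progenitors and vessels, FGF10 for the formation of adipocytes, and FGFR1 with its co-receptor KLB for the response of adipocytes to the hormone FGF21. FGF14 is not secreted and regulates sodium channels.

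By the GENCODE M21 annotation of GRCm38, Fgf2 is at chr3:37348346-37410108 on the plus strand, as is Fgf7 at chr2:126034658-126091185. Fgf10 is at chr13:118669791-118792115 (plus), Fgf14 at chr14:123977907-124677127 (minus), Fgfr1 at chr8:25513654-25575718 (plus) and Fgfr3 at chr5:33721674-33737068 (plus). Fgfr2 needs a caution that holds for every value below. Its model runs over 2960.9 kb, chr7:130162451-133123350 on the minus strand, because 1 of its 27 transcripts, with the weakest support level of 5, reaches beyond the receptor locus; RefSeq ends the gene at 130266808, a span of 104.358 kb. The long span takes in 22 other genes of the matrix on its strand and 26 on the opposite strand, so UMIs of the Fgfr2 row cannot be assigned to the receptor locus. The annotation release inside the counting reference itself was not checked.

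The 2 ligand genes with the widest spread over diets in progenitors, Fgf7 and Fgf10, are shown with the 250 bases before their RefSeq start sites (GRCm38.p6, plus strand, 5′ to 3′), chr2:126034408-126034657 and chr13:118714449-118714698. The windows were searched on both strands for the GC box GGGCGG, the TATA box TATAAA, the promoter motif CCAAT and the nuclear receptor motif AGGTCA, and matches are in capitals.
Fgf7: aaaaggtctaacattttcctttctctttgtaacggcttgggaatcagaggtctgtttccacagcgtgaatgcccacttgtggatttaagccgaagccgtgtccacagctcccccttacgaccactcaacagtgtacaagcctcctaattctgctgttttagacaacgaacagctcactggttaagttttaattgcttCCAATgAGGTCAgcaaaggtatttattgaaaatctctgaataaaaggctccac
Fgf10: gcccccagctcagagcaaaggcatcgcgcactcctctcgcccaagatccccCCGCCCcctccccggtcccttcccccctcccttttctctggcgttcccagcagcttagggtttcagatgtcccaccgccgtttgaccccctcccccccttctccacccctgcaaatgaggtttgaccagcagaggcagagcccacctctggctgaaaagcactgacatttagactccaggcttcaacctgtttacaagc
The Fgf7 window held a CCAAT and an AGGTCA next to each other, and the Fgf10 window held a GGGCGG read on the minus strand (CCGCCC). Of 27025 genes with such a window, 34.5% held CCAAT, 13.8% AGGTCA, 32.9% GGGCGG and 13% TATAAA. Of the 8 genes, 6 had an entry in the RefSeq promoter table. The Fgf10 window lies inside the gene as GENCODE places it, from 118669791 on.

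The libraries held 5173 to 14833 barcodes and 22599619 (CCC) to 66615262 (HHC) UMIs, and no 2 libraries shared more than 55 barcodes. Nuclei were assigned to the class of which they held the most of 8 markers, with at least 2 markers and a lead of 2 over any other class. This gated 53918 of 76356 nuclei within the limits on genes and UMIs, between 54.1% in CCC and 82.1% in H. Adipocytes numbered 1686 to 2473 in the chow libraries but 179 in H and 455 in HH, while macrophages numbered 117 (CC) to 1359 (C) in chow but 5189 in H and 5334 in HH. CC and CCC stood apart: RNA of adipocyte markers was widespread there, reaching a summed 1279 CPM (UMIs scaled to a common total of the class in each library) in the macrophages of CC against 106 in those of H, and the adipocyte gate held 417.9 CPM of Adcy8 in CC and 257 CPM in CCC against at most 55.2 CPM elsewhere. Adipocyte results are therefore also given for a purer gate of at least 5 markers and 0.6% of UMIs in them, which lowered Adcy8 to 76.4 CPM in CC and 92.9 CPM in CCC. Under it F13a1, one of the 8 macrophage markers, was 49.9, 136 and 159 CPM in C, CC and CCC against 10.2 CPM in H and 2.52 CPM in HH. Adgrg2, also checked, was 346, 254 and 218 CPM in C, CC and CCC against 37.4 CPM in H and 33.4 CPM in HH. Such differences thus remained in the purer gate, and their part in the adipocyte changes was not tested. The H, HH, C, CCH and HCH libraries belong to one labelled sequencing set and the CC, CCC, HC and HHC libraries to the other, so weight loss and long HFD never share a set.

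Levels below are CPM. Tests between classes are exact two-sided sign-flip tests over the libraries with at least 50 gated nuclei of both classes, of 32 neighbouring pairs among adipocytes, progenitors, macrophages, endothelial and mesothelial nuclei. Their smallest p is 0.0039 with 9 libraries and 0.0078 with 8. Diet states were compared with edgeR on UMIs summed per library, taking libraries of one state at different ages as replicates, and p is adjusted over all genes tested. With the sequencing set in the model, the set effect is estimated from the chow libraries only, C against CC and CCC. HFD is then in effect compared with C alone, and weight loss with CC and CCC. That set effect cannot be told apart from age.

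**Figure D1:**
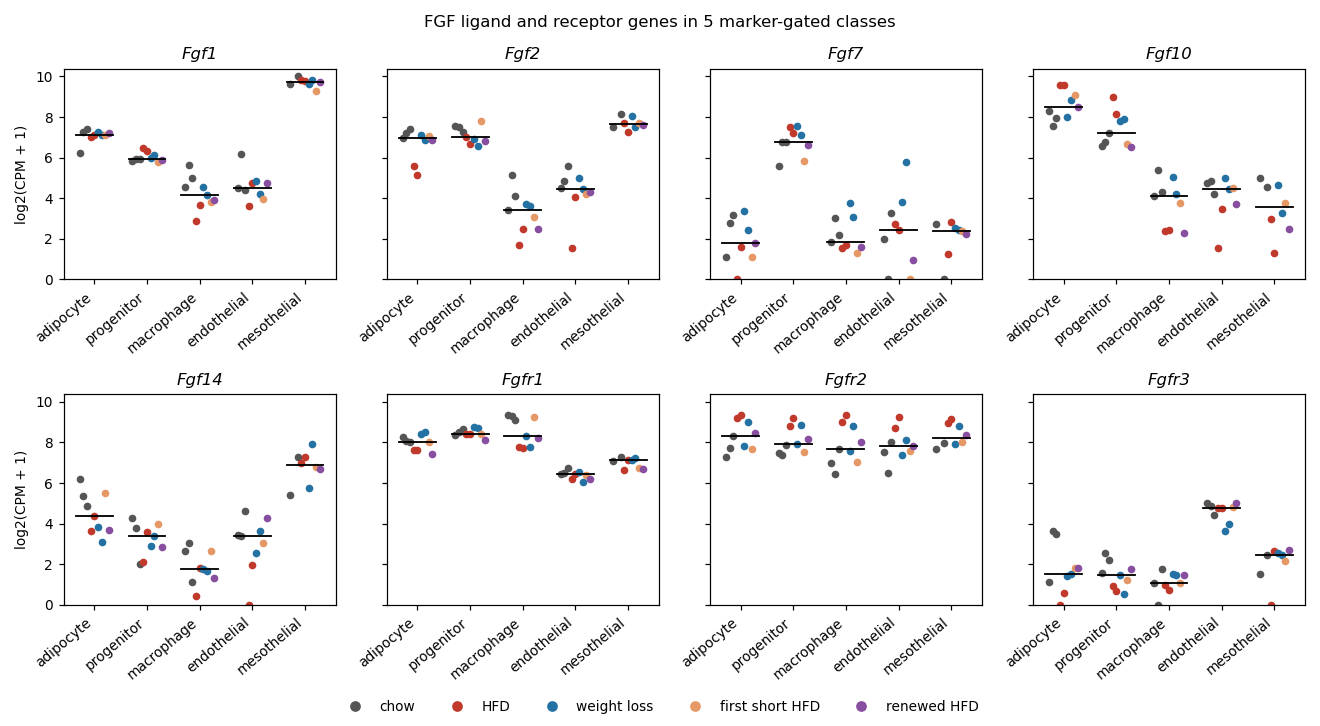
Level of each FGF gene on a log2(CPM + 1) scale (y) in 5 marker-gated classes (x), 1 point per library with at least 50 nuclei, coloured by diet state, with the median as a bar. Fgf1 was highest in mesothelial nuclei (median 858 CPM), Fgf7 in progenitors (median 108 CPM), Fgf10 in adipocytes (median 358 CPM) and Fgfr3 in endothelial nuclei (median 26.5 CPM), while the Fgfr2 medians of the 5 classes lay between 202 and 317 CPM.

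Fgf1, at chr18:38838673-38929472 on the minus strand, was highest in mesothelial nuclei and next in adipocytes among the 5 main classes. Mesothelial nuclei, the lining cells of the depot, held 782 CPM in C and 1043 CPM in CCC. They held 917 CPM in H, 882 CPM in HH, 782 CPM in HC, 906 CPM in HHC, 615 CPM in CCH and 833 CPM in HCH. The CC library had too few mesothelial nuclei (35). Every library had more Fgf1 there than in its adipocytes, by a median 2.66 on the log2 scale (8 of 8, p = 0.0078, exact test). Adipocytes in turn held more than progenitors in 9 of 9 libraries (median log2 difference 1.32, p = 0.0039, exact test), and progenitors more than endothelial nuclei in 8 of 9 (1.5, p = 0.0078, exact test). Endothelial nuclei and macrophages, at medians of 22.0 and 16.7 CPM, did not differ beyond their spread (p = 0.078, exact test).

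With edgeR over all 9 libraries, diet left no called difference in Fgf1 in either of its main classes. Adipocyte Fgf1 was 74.7, 155 and 169 CPM in C, CC and CCC, 130.2 CPM in H, 136 CPM in HH, 154 CPM in HC and 139 CPM in HHC. With 4 weeks of HFD it was 137 CPM in CCH and 149 CPM in HCH, so that C alone lay low. The HFD change was -0.14 on the log2 scale (SE 0.30, adjusted p = 0.757), and its sign was the opposite in 4 of 16 alternatives. It was 0.50 within the sequencing set that holds C, H and HH, where C is the only chow library. In mesothelial nuclei the HFD change was -0.13 (adjusted p = 0.825). Outside the 5 main classes, smooth muscle or pericyte nuclei held 198 CPM in C and 108 CPM in HC, the libraries with enough of them, and epithelial nuclei held 108 CPM in C; in C both classes lay above its adipocytes.

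Among the 5 main classes Fgf2 was highest in mesothelial nuclei, progenitors and adipocytes, and in adipocytes it was low under long HFD. Adipocyte Fgf2 was 125, 148 and 171 CPM in C, CC and CCC, 47.7 CPM in H and 34.5 CPM in HH. After weight loss it stood at 138 CPM in HC and 117 CPM in HHC, and it was 132 CPM in CCH and 114 CPM in HCH. The HFD libraries lay below all others, and the weight-loss libraries reached into the chow range or just below it. Fgf2 fell by 2.05 on the log2 scale with HFD (SE 0.27, adjusted p = 0.0116) and was -0.15 with weight loss (adjusted p = 0.873). Of all genes tested in adipocytes 11% were called with HFD (1746 of 15902), and 3 of the 8 FGF genes were, Fgfr2 among them. The Fgf2 value was -2.04 with the sequencing set in the model and -2.01 within one set, both in effect against C alone. The purer gate gave 52.6 CPM in H and 34.0 CPM in HH against 119 to 204 CPM in chow (-2.19, adjusted p = 0.0053). The call needed both HFD libraries: adjusted p was 0.11 without H and 0.16 without HH. Summed mesothelial-marker RNA in the adipocyte gate was also lower with HFD: 90.9 to 178 CPM in chow (8 of 8 markers detected), 37.4 CPM in H (6 of 8) and 53.0 CPM in HH (7 of 8), with 57.5 CPM in HC and 78.0 CPM in HHC. Progenitor-marker RNA there was 701 to 967 CPM in chow, 436 CPM in H and 687 CPM in HH (8 of 8 detected), and epithelial-marker RNA 24.2 to 78.8 CPM in chow, 20.6 CPM in H and 8.23 CPM in HH. The summed adipocyte markers were 5971 to 6991 CPM in chow, 8713 CPM in H and 9310 CPM in HH. The part of any of these in the adipocyte changes was not tested.

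In progenitors Fgf2 was 184, 181 and 155 CPM in C, CC and CCC, 127 CPM in H, 102 CPM in HH, 118 CPM in HC and 95.8 CPM in HHC. The highest level was 221 CPM in CCH, and HCH had 112 CPM. Every library with a history of 12 or more weeks of HFD lay below every other. With HFD it fell by 0.78 (SE 0.23, adjusted p = 0.045), a call that ended without any 1 of C, CC, CCC, H and HH and with the sequencing set in the model (highest adjusted p 0.318). Weight loss gave -0.70 (adjusted p = 0.188). Summed adipocyte-marker RNA in progenitors (8 of 8 markers detected) was 380, 1390 and 682 CPM in C, CC and CCC, 128 CPM in H and 225 CPM in HH, and its part in the progenitor changes was not tested. In progenitors 15.4% of genes were called with HFD and 1.49% with weight loss, and 3 (Fgfr2 among them) and 0 of the 8 FGF genes were with edgeR. With weight loss 4 of the 8 had an unadjusted p under 0.05, and DESeq2 called 1, Fgf10. The share of all genes at that unadjusted p is not given, so the 4 are no result about these genes.

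Progenitors were divided by 6 genes each into a Dpp4 side and a side named committed, and the potential of neither side was tested. Fgf2 was higher on the Dpp4 side in 9 of 9 libraries, by a median 1.18 (p = 0.0039, exact test, one of 8 such tests). On the Dpp4 side its level was 244, 238 and 209 CPM in C, CC and CCC, 209 and 139 CPM in H and HH, 129 and 125 CPM in HC and HHC, 268 CPM in CCH and 152 CPM in HCH. The Dpp4 side made up 61.2%, 47.9% and 45.1% of progenitors in C, CC and CCC, 45.4% and 44.1% in H and HH, 30.9% and 38.2% after weight loss (HC, HHC), and 73.4% and 55.8% with 4 weeks of HFD (CCH, HCH). CC, CCC, H and HH were thus close in this share, while CCH had the largest share and HC the smallest. The part of the share in the Fgf2 levels of all progenitors was not tested.

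Between classes, mesothelial Fgf2 (152 to 287 CPM) was above progenitors in 6 of 8 libraries (0.77, p = 0.031, exact test; not past the threshold under a stricter gate or without CCC), progenitors and adipocytes did not differ beyond their spread (5 of 9 libraries, p = 0.11, exact test), and adipocytes were above endothelial nuclei in 9 of 9 (2.42, p = 0.0039, exact test). Endothelial Fgf2 lay between 1.89 (H) and 46.4 CPM (CCC), and smooth muscle or pericyte nuclei held 90.0 CPM in C and 60.9 CPM in HC. Nudt6 and Fgf2os, on the opposite strand of Fgf2, stayed at or below 31.3 CPM in adipocytes, progenitors, macrophages and mesothelial nuclei.

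Fgf7, also called keratinocyte growth factor, was highest in progenitors among the 5 main classes. Progenitor Fgf7 was 47.1, 108 and 107 CPM in C, CC and CCC, 179.5 CPM in H, 148 CPM in HH, 185 CPM in HC, 139 CPM in HHC, 55.1 CPM in CCH and 96.0 CPM in HCH. All 4 libraries of H, HH, HC and HHC lay above the 3 chow libraries, and C and CCH were the lowest. Neither contrast was called: the HFD change was 0.77 (SE 0.34, adjusted p = 0.15) and the weight-loss change 0.93 (SE 0.34, adjusted p = 0.246; 0.00355 without the filter on low counts). With the sequencing set in the model, in effect against C alone, the HFD change was 1.61 (adjusted p = 0.0363). Without the filter on low counts the HFD change was called as well. Between the age-matched H and C libraries the log2 ratio was 1.93, with a counting interval of 1.73 to 2.14.

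Progenitors held more Fgf7 than endothelial nuclei in 9 of 9 libraries (4.76, p = 0.0039, exact test), and the remaining neighbours did not differ beyond their spread (p from 0.24 to 0.88, exact tests). Adipocytes had at most 9.39 CPM, with 0 UMIs in H, where 3 UMIs would be 3.87 CPM. Macrophages reached 12.6 CPM in HC and mesothelial nuclei 6.04 CPM in HH. Smooth muscle or pericyte nuclei held 42.0 CPM in C, on 14 UMIs and close to the progenitors of C, and 60.9 CPM in HC, on 26 UMIs. Endothelial nuclei of HHC were an exception at 53.4 CPM, on 33 UMIs, against at most 12.9 CPM in the endothelial nuclei of the other libraries. Inside the progenitors the committed side was higher in 9 of 9 libraries (Dpp4 minus committed side -0.89, p = 0.0039, exact test): 81.2 to 142 CPM in chow, 236 CPM in H and 196 CPM in HH, against 36.5 to 87.6, 127 and 104 CPM on the Dpp4 side. Fam227b, a gene on the opposite strand that overlaps Fgf7 and its start, held 4.69 to 19.1 CPM in the progenitors of the chow libraries, 85.1 CPM in H, 92.4 CPM in HH and 86.0 CPM in HHC. Its part in the Fgf7 counts was not tested.

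Fgf10 was higher with HFD in adipocytes and progenitors alike. Adipocyte Fgf10 was 308, 188 and 248 CPM in C, CC and CCC, 750.5 CPM in H and 755 CPM in HH. HC had 257 CPM, HHC 455 CPM, CCH 533 CPM and HCH 358 CPM. H and HH were highest, HC lay in the chow range, and CCH, HHC and HCH lay between. Fgf10 rose by 1.38 on the log2 scale with HFD (SE 0.33, adjusted p = 0.0386). The change was smaller against the set-mate C alone (0.95 within one set, 0.89 with the set in the model, adjusted p = 0.0721), and the call ended without any 1 of CC, CCC, H and HH (highest adjusted p 0.239). Under the purer gate the change was 1.23 (adjusted p = 0.019), with 243 to 326 CPM in chow, 779 CPM in H and 799 CPM in HH. Weight loss gave 0.50 (adjusted p = 0.645); 0 genes of 15902 were called in that contrast with edgeR, 1735 had an unadjusted p under 0.05, and DESeq2 called 304.

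**Figure D2:**
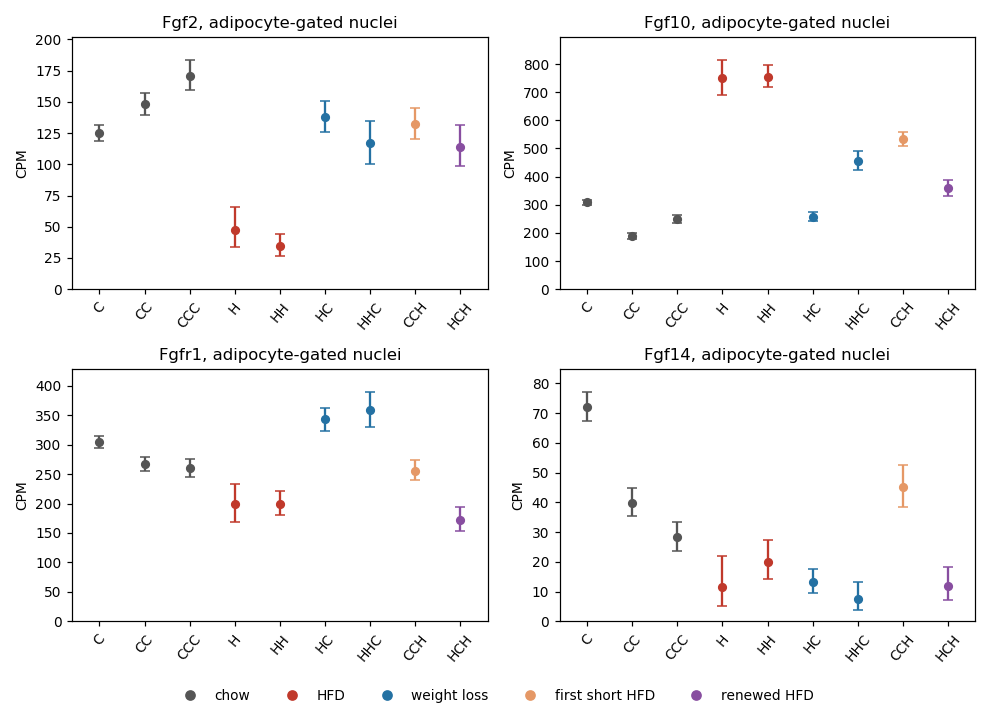
Levels (CPM, y) of Fgf2, Fgf10, Fgfr1 and Fgf14 in adipocyte-gated nuclei of each library (x), coloured by diet state, with exact Poisson 95% intervals that cover counting error only. H and HH lie below every other library for Fgf2 (47.7 and 34.5 CPM) and above every other for Fgf10 (750.5 and 755 CPM).

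Progenitor Fgf10 was 95.4, 109.9 and 147 CPM in C, CC and CCC, 508 CPM in H and 283 CPM in HH. It was 220.3 CPM in HC and 235 CPM in HHC, all above chow, whereas CCH (102 CPM) and HCH (92.1 CPM) stayed in or under the chow range. With HFD Fgf10 rose by 1.59 (SE 0.27, adjusted p = 0.00716), and by 1.86 with the set in the model (adjusted p = 0.0383). Without H the change was 1.09 (adjusted p = 0.0604). Weight loss gave 0.95 (SE 0.27, adjusted p = 0.132) and was not called with edgeR, but DESeq2 called it (adjusted p = 0.0489), as did edgeR without the filter on low counts (adjusted p = 0.00134).

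On the committed side Fgf10 was 107 to 203 CPM in chow, 945 CPM in H, 458 CPM in HH, 294 CPM in HC, 363 CPM in HHC, 169.8 CPM in CCH and 144 CPM in HCH. On the Dpp4 side the range over all 9 libraries was 64.7 (HCH) to 169.6 CPM (HC), with H at 127 CPM and HH at 120.1 CPM. The committed side was higher in 9 of 9 libraries (Dpp4 minus committed side -1.07, p = 0.0039, exact test), and a difference of the diet change between the sides was not tested. Committed-side nuclei made up 19.1%, 31.1% and 28.7% of progenitors in C, CC and CCC, 35.6% and 31.2% in H and HH, 41.2% and 39.1% after weight loss (HC, HHC), and 13.7% and 24.1% with 4 weeks of HFD (CCH, HCH). The remaining progenitors fell on neither side. CC and HH were close in the committed share, at 109.9 and 283 CPM of progenitor Fgf10, while C and H differed in it, at 95.4 and 508 CPM. The part of the share in the Fgf10 levels was not tested.

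**Figure D3:**
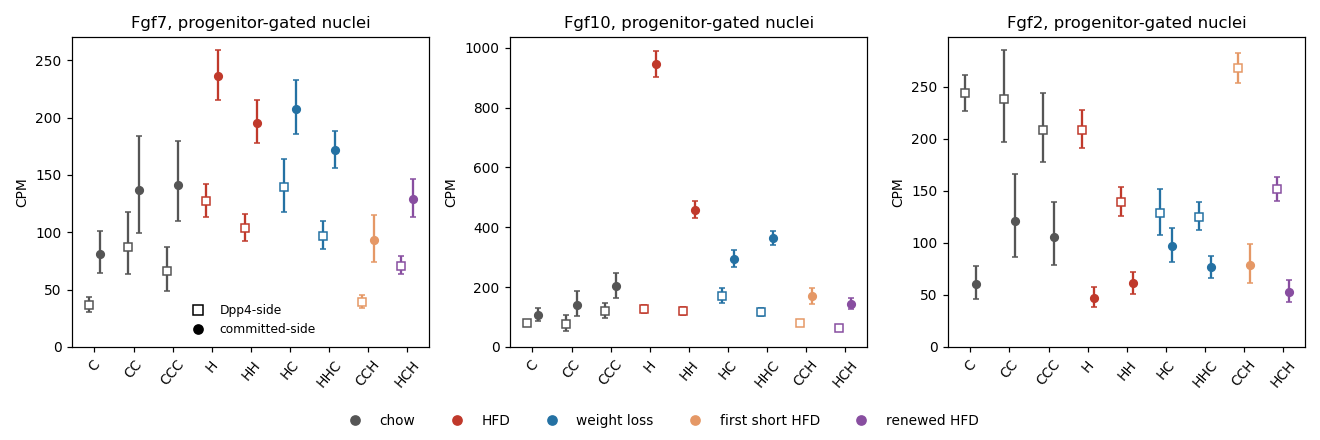
Levels (CPM, y) of Fgf7, Fgf10 and Fgf2 per library (x) in the Dpp4-side (open squares) and committed-side (filled circles) progenitors, coloured by diet state, with exact Poisson 95% intervals for counting error. Fgf7 and Fgf10 are higher on the committed side in every library, up to 945 CPM for Fgf10 in H, and Fgf2 is higher on the Dpp4 side in every library.

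Adipocytes held more Fgf10 than progenitors in 9 of 9 libraries (0.95, p = 0.0039, exact test) and progenitors more than endothelial nuclei in 9 of 9 (2.84, p = 0.0039, exact test), while endothelial nuclei, macrophages and mesothelial nuclei did not differ beyond their spread (p = 0.28 and 0.78, exact tests). Low Fgf10 in mesothelial nuclei and macrophages went the other way. Mesothelial nuclei held 30.5 CPM in C, 22.4 CPM in CCC, 6.79 CPM in H and 1.51 CPM in HH (-3.07, SE 0.66, adjusted p = 0.0039; -3.09 with the sequencing set in the model), a call that ended without C or without HH. This fit, like every mesothelial fit, also took in CC, with 35 nuclei and 40.1 CPM of Fgf10. The mesothelial levels rest on 32, 5 and 5 UMIs in C, CC and CCC, 5 in H and 2 in HH, where 3 UMIs would be 2.26 CPM. In macrophages Fgf10 was 16.4 to 41.3 CPM in chow and 4.20 and 4.39 CPM in H and HH (-2.49, SE 0.47, adjusted p = 0.00412, in a fit added after the macrophage levels of Fgfr1 were seen). Summed adipocyte-marker RNA (8 of 8 markers detected) was also lower in H and HH than in chow. It was 400 and 497 CPM in the mesothelial nuclei of C and CCC against 106 and 210 CPM in H and HH. In macrophages it was 348 to 1279 CPM in chow against 106 and 191 CPM in H and HH. HCH macrophages held 3.82 CPM of Fgf10 beside 356 CPM of this RNA, and CCH macrophages 12.6 CPM beside 311 CPM. Mesothelial nuclei held 4.67 CPM of Fgf10 beside 329 CPM of it in HCH, and 12.7 CPM beside 398 CPM in CCH. The part of this RNA in the Fgf10 levels was not tested. Macrophage Fgf1 (22.1 to 48.6 CPM in chow, 6.40 CPM in H, 11.7 CPM in HH; -1.87, adjusted p = 0.00799) and Fgf2 (9.64 to 34.0 CPM in chow, 2.28 CPM in H, 4.55 CPM in HH; -2.41, adjusted p = 0.00922) were low with HFD beside the same RNA, and both calls ended without H and with the sequencing set taken into account. Gm16263, on the opposite strand of Fgf10, reached 74.0 CPM in adipocytes and 88.5 CPM in progenitors.

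C and HC were the 2 libraries with at least 50 smooth muscle or pericyte nuclei. There Fgf14 was highest in that class, at 609 CPM in C and 246 CPM in HC. Its smaller gates held 579 CPM in CC and 532 CPM in CCC, on 4 and 15 UMIs. They held 84.7 CPM in CCH, on 6 UMIs, and 19.2 CPM in HHC, on 1 UMI. In H, HH and HCH they held 0 UMIs, with upper counting limits of 156, 89.9 and 90.0 CPM. Mesothelial levels were higher in CCH, HHC, H, HH and HCH, so the ranking was not common to all libraries. Mesothelial nuclei held 41.9 CPM in C, 152 CPM in CCC, 124 CPM in H, 156 CPM in HH and 53.5 CPM in HC. They held 240.4 CPM in HHC, 108 CPM in CCH and 101 CPM in HCH. They were above adipocytes in 7 of 8 libraries (2.64, p = 0.016, exact test). Progenitors held 3.08 (CCC) to 18.6 CPM (C), endothelial nuclei at most 23.2 CPM (CCC) and macrophages at most 7.29 CPM (CC). In adipocytes Fgf14 was 72.1, 39.9 and 28.2 CPM in C, CC and CCC, 45.0 CPM in CCH, and lower in every library with long HFD in its history: 11.6 CPM in H, 20.1 CPM in HH, 13.1 CPM in HC, 7.49 CPM in HHC and 11.7 CPM in HCH. The 2 sets of libraries did not overlap. The macrophage marker F13a1 divided the same gate in the same way. It was 70.5, 267, 214 and 97.4 CPM in C, CC, CCC and CCH, against 10.3 CPM in H, 10.3 CPM in HH, 41.2 CPM in HC, 31.8 CPM in HHC and 35.2 CPM in HCH. Adgrg2 divided the libraries likewise, and both did so under the purer gate. The part of such RNA in the Fgf14 levels was not tested. The HFD change of -1.76 (SE 0.59, adjusted p = 0.0792) and the weight-loss change of -2.14 (SE 0.58, adjusted p = 0.278, unadjusted p = 0.00568) were not called with edgeR. DESeq2 called the weight-loss change (-2.14, adjusted p = 0.0199), as did edgeR without the filter on low counts (adjusted p = 0.00178). Both settings also called the HFD change. Under the purer gate Fgf14 fell by 1.5 on the log2 scale with HFD (adjusted p = 0.0406), where 14.7% of genes were called, and its weight-loss change was -2.81 (adjusted p = 0.0934), where 0.103% of genes were called. With the sequencing set in the model and the wider gate the HFD change was -2.49 (adjusted p = 0.018).

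Between pairs of single libraries, adipocyte Fgf14 was lower in H than in C (log2 ratio -2.63, interval -3.77 to -1.70), in HC than in CC (-1.61, -2.09 to -1.16), in HHC than in CCC (-1.92, -2.90 to -1.06) and in HCH than in CCH (-1.94, -2.71 to -1.25). The 2 libraries of each of these 4 pairs were of one age and one sequencing set. HH against CC, which differ in both, gave -0.99 (-1.52 to -0.50), short of 2-fold. These intervals cover counting error only.

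Fgfr1 was measured in all 5 main classes, and its called differences over diets were in macrophages. Macrophage Fgfr1 was 662, 629.6 and 552 CPM in C, CC and CCC, 218 CPM in H, 213 CPM in HH, 312 CPM in HC and 219.8 CPM in HHC. CCH, with 4 weeks of HFD only, had 607 CPM, and HCH 294 CPM. The libraries fell into those without long HFD, all at or above 552 CPM, and those with it, all at or below 312 CPM. A fit for macrophages, added after these levels were seen and so no independent support, gave -1.61 with HFD (SE 0.25, adjusted p = 0.00154) and -1.20 with weight loss (SE 0.24, adjusted p = 0.0153). The HFD value was called under all 15 alternatives, between -1.78 (with the sequencing set in the model) and -1.45. The weight-loss call ended without C, CC or HHC and with the sequencing set taken into account (highest adjusted p 0.101). In that fit 27.3% of genes were called with HFD and 5.76% with weight loss, and 5 (Fgfr2 among them) and 1 of the 8 FGF genes were.

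The kinds of macrophage in the gate differed in the same way over the libraries. Nuclei with UMIs of F13a1 or Mrc1, markers of resident macrophages, but none of Gpnmb, a marker of lipid-laden ones, made up 96.6%, 94.9% and 90.6% of macrophages in C, CC and CCC and 94.9% in CCH. In H they made up 8.98%, and HH had 14.9%, HC 13.6%, HHC 0.60% and HCH 32.0%. Within these nuclei alone Fgfr1 was 673, 645 and 558 CPM in C, CC and CCC and 616 CPM in CCH, against 238 CPM in H, 267 CPM in HH, 368 CPM in HC and 369 CPM in HCH. In these nuclei H, HH, HC and HCH lay below chow and CCH; HHC had 20 of them and is not given. The part of the kinds of macrophage in the Fgfr1 levels was not tested. The nuclei taken as the Gpnmb kind made up 8.64% of macrophages in HCH, 15.2% in HHC and 15.5% in HC. They made up 23.5% in HH and 28.1% in H, and had UMIs of Gpnmb but none of F13a1 or Mrc1. Most macrophages of these libraries thus fell in neither kind, either with UMIs on both sides of the split or with none. The split rests on detection of these genes, so a nucleus without UMIs of Gpnmb may still express it. In the 4 libraries with both kinds, F13a1 or Mrc1 nuclei without Gpnmb had more Fgfr1 than the Gpnmb kind in 4 of 4. The median difference was 0.33 (p = 0.125, exact test, the smallest that 4 libraries allow). Gpnmb nuclei held 201 (HCH) to 299 CPM (HC).

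**Figure D4:**
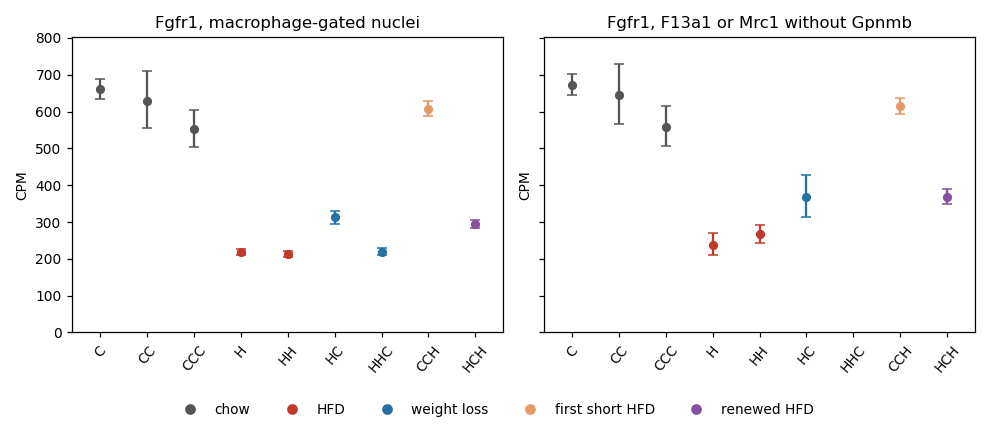
Fgfr1 level (CPM, y) per library (x) in all macrophage-gated nuclei (left) and in those with F13a1 or Mrc1 and no Gpnmb (right, libraries with at least 50 such nuclei), coloured by diet state, with exact Poisson 95% intervals for counting error. C, CC, CCC and CCH lie at or above 552 CPM in both panels, and H, HH, HC and HCH at or below 369 CPM.

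Adipocyte Fgfr1 was 305, 267 and 259.7 CPM in C, CC and CCC, 199 CPM in H, 199.7 CPM in HH, 343 CPM in HC, 358 CPM in HHC, 256 CPM in CCH and 172 CPM in HCH. H, HH and HCH were the lowest and the weight-loss libraries the highest. The HFD change of -0.69 (SE 0.26, adjusted p = 0.109) was not called, and with the sequencing set in the model it was -1.01 (adjusted p = 0.0255). Weight loss gave 0.36 (adjusted p = 0.664). Progenitor Fgfr1 was more even, from 279.8 (HCH) to 431 CPM (HC), with an HFD change of -0.27 (adjusted p = 0.334), and was higher on the Dpp4 side in 9 of 9 libraries (0.29, p = 0.0039, exact test). Progenitors and macrophages did not differ beyond their spread (4 of 9 libraries, p = 0.84, exact test). Adipocytes were above mesothelial nuclei (8 of 8, 1.08) and those above endothelial nuclei (8 of 8, 0.59), each with p = 0.0078 (exact test). Dendritic cells held 357 CPM in H and 461 CPM in HCH.

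UMIs of the Fgfr2 gene model were higher with HFD in each of the 5 main classes. Adipocytes held 152, 207 and 317 CPM in C, CC and CCC, 591 CPM in H, 661 CPM in HH, 226 CPM in HC, 509.9 CPM in HHC, 206 CPM in CCH and 352 CPM in HCH. Macrophages, a class unlike adipocytes, held 126, 87.5 and 202 CPM in the chow libraries in that order, 514 CPM in H, 642 CPM in HH, 189.9 CPM in HC, 442 CPM in HHC, 131 CPM in CCH and 260.1 CPM in HCH. Adipocytes were above macrophages in 9 of 9 libraries, a pair of classes that was not tested. The HFD change was 1.32 in adipocytes (SE 0.33, adjusted p = 0.0424), 1.26 in progenitors (SE 0.25, adjusted p = 0.0115), 1.47 in endothelial nuclei (SE 0.36, adjusted p = 0.0414), 1.14 in mesothelial nuclei (SE 0.25, adjusted p = 0.00437) and 1.95 in macrophages (SE 0.34, adjusted p = 0.00285). With the sequencing set in the model the changes lay between 1.34 in progenitors and 2.03 in macrophages. All 5 were past the threshold, against 3.72% of genes in endothelial and 7.7% in mesothelial nuclei and the shares given above for the others. The call ended without HH in all but macrophages, without CC or H in adipocytes and endothelial nuclei, with the sequencing set in the model in progenitors, and under the stricter gate in endothelial nuclei (adjusted p = 0.0526). With weight loss edgeR called Fgfr2 in 0 of the 5 classes (0.32 to 1.15, adjusted p from 0.0798 in macrophages to 0.968 in endothelial nuclei), where 0.236% of endothelial and 0.6% of mesothelial genes were called, and 3 of the 5 had an unadjusted p under 0.05. The macrophage value was called by DESeq2 (adjusted p = 0.0363), without the filter on low counts (1.98e-05), without HC (0.0116) and without an upper limit on genes (0.0437), and the progenitor value without the filter (adjusted p = 0.00333).

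**Figure D5:**
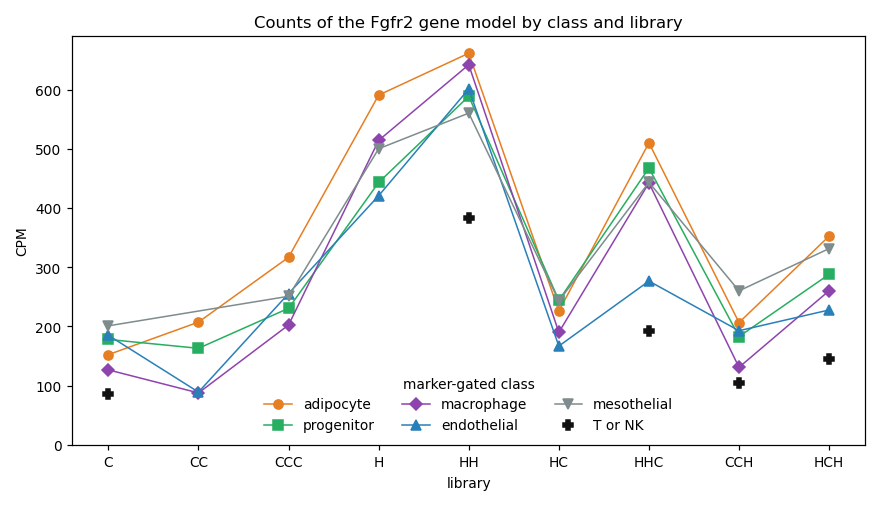
UMIs of the Fgfr2 gene model in CPM (y) per library (x) for 6 marker-gated classes, shown for libraries with at least 50 nuclei of the class and joined by lines except for T or NK nuclei. The 5 main classes run from 87.5 to 207 CPM in the main classes of C and CC to between 560.1 and 661 CPM in those of HH, and T or NK nuclei lie lower (86.4 CPM in C, 383 CPM in HH).

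T or NK nuclei showed 86.4 CPM in C and 383 CPM in HH, and mast nuclei of HH 1023 CPM, with smooth muscle or pericyte nuclei at 510.0 CPM in C and 956 CPM in HC. None of the neighbouring classes differed beyond their spread in Fgfr2 (p from 0.078 to 0.99, exact tests). As the model spans many other genes, no level or change of the receptor can be read from these values.

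Fgfr3 was scarce, with 569 UMIs over the class-by-library values of at least 50 nuclei, and among the 5 main classes it was highest in endothelial nuclei. Endothelial nuclei held 31.6, 28.1 and 20.3 CPM in C, CC and CCC, 26.5 CPM in H, 26.1 CPM in HH, 11.3 CPM in HC, 14.6 CPM in HHC, 27.4 CPM in CCH and 31.5 CPM in HCH, on 6 to 63 UMIs each. Both weight-loss libraries were lowest, within counting intervals that overlap most others, and the weight-loss change of -1.07 was not called with edgeR (adjusted p = 0.60). Endothelial nuclei were above mesothelial nuclei in 8 of 8 libraries (2.20, p = 0.0078, exact test), and the lower classes did not differ beyond their spread. Smooth muscle or pericyte nuclei held 39.0 CPM in C and 32.8 CPM in HC. Epithelial nuclei held 11.6 CPM in C, on 3 UMIs; the epithelial gates of CCC, H and CCH, each under 50 nuclei, held 90.1, 69.7 and 85.1 CPM on 7, 5 and 8 UMIs. In adipocytes Fgfr3 was listed at 11.5 CPM in CC and 10.1 CPM in CCC and at most 2.53 CPM elsewhere, but at 3.32 and 5.37 CPM in CC and CCC under the purer gate, so those levels moved with the gate. Its HFD change there was -4.37 (adjusted p = 0.073), on 0 UMIs in H and 1 in HH, and was not called with edgeR. DESeq2 called it, as did edgeR without the filter on low counts and without C. The progenitor HFD change of -2.20 (adjusted p = 0.098) was called with edgeR only without an upper limit on genes.

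Intronic reads, counted here, add to the levels of long genes, so levels of different genes are not directly comparable. The libraries were made with a 3′ kit, and how far the counts grow with the gene span was not tested. Levels per kilobase are thus a rough scale and no ranking of expression. Per kilobase of gene and among the 5 main classes only, the highest class medians were 9.44 CPM per kb for Fgf1 in mesothelial nuclei, 5.55 for Fgfr1 in progenitors, 3.29 for Fgf2 in mesothelial nuclei, 2.93 for Fgf10 in adipocytes, 1.91 for Fgf7 in progenitors and 1.72 CPM per kb for Fgfr3 in endothelial nuclei. Fgf14, over 699.221 kb, had 0.166 CPM per kb in mesothelial nuclei. Lengths are GENCODE spans, and the RefSeq start of Fgf10 lies inside its span of 122.325 kb. A shorter length would raise its value, so the place of Fgf10 in this order depends on the annotation.

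Single pairs of libraries, which allow no test, were read as apart at 2-fold or more with a counting interval that excluded equality. Of the 16 values of 8 genes in adipocytes and progenitors, 8 were apart between H and C, where 27.5% of adipocyte and 28.7% of progenitor genes were. HH and CC, of 31 and 26 weeks, gave 7, against 37.9% and 27% of genes. Lower numbers came from HC and CC (3, against 20.2% and 12.4%), HHC and CCC (4, against 16.2% and 12%), HCH and CCH (2, against 15.6% and 14.7%) and CCH and CC (3, against 22.8% and 14.5%). In progenitors Fgf10 was higher in H than in C by 2.41 (2.27 to 2.56), in HH than in CC by 1.36 (1.09 to 1.65) and in HC than in CC by 1.00 (0.72 to 1.30), which was no longer apart with the stricter gate, the looser gate, no upper limit on genes or a minimum of 1000 genes. Both members apart between HCH and CCH were Fgf14, lower in adipocytes and in progenitors (-1.26, -1.78 to -0.75). CC stands on the control side of 3 of these pairs, so they are not independent.

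Of 47 other genes of FGF signalling, listed by role, 31 were tested in adipocytes with HFD: 1 rose and 5 fell, with a median change of -0.58 against -0.11 for all genes, of which 11% were called. Fgfbp3, a carrier that frees FGFs from the matrix, rose by 2.35 (adjusted p = 0.0278), from 3.0 to 6.6 CPM in chow to 18.1 CPM in H and 26.2 CPM in HH. The relay genes Plcg1 (-1.42, adjusted p = 0.0291), Sos2 (-1.02, adjusted p = 0.034) and Grb2 (-0.87, adjusted p = 0.0488), the feedback inhibitor Spred2 (-1.59, adjusted p = 0.0442) and the target transcription factor Etv5 (-2.21, adjusted p = 0.0389) fell. All 6 calls ended without H, without HH or without CC. With weight loss edgeR called 0 of the 31, with 4 at an unadjusted p under 0.05, and DESeq2 called 1. In progenitors, where 15.4% of genes were called with HFD, 35 were tested and 3 called: Fgfbp3 (2.40, adjusted p = 0.0119) and the intracellular factor Fgf11 (1.75, adjusted p = 0.031) rose, the receptor gene Fgfr4 fell (-3.19, adjusted p = 0.0241). All 3 calls ended without HH, and those of Fgf11 and Fgfr4 also without H, without CC and with the sequencing set in the model. With weight loss edgeR and DESeq2 each called 0 of the 35, with 7 at an unadjusted p under 0.05 in edgeR. In endothelial (23 tested) and mesothelial nuclei (22 tested) edgeR and DESeq2 each called 0 in either contrast, with 3 and 3 at an unadjusted p under 0.05 with HFD in edgeR and 0 and 2 with weight loss. Outside adipocytes the share of all genes at an unadjusted p under 0.05 is not given, so these counts are no result about these genes.

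In macrophages 31 of the 47 were tested with HFD, where 4 rose and 9 fell, beside 27.3% of all genes called. Fgf13, an intracellular relative of Fgf14, was 64.6, 68.1 and 108 CPM in C, CC and CCC, 463 CPM in H, 591 CPM in HH, 366 CPM in HC, 459 CPM in HHC, 24.8 CPM in CCH and 368 CPM in HCH. Every library with long HFD in its history lay above the other 4, and Fgf13 rose with HFD (2.63, adjusted p = 0.000192) and with weight loss (2.37, adjusted p = 0.000358). Etv1, a transcription factor induced by FGF receptors, ran the other way: 173, 192 and 144 CPM in the chow libraries, 67.3 CPM in H, 57.8 CPM in HH, 48.3 CPM in HC, 41.3 CPM in HHC, 164 CPM in CCH and 106 CPM in HCH. Etv1 fell with HFD (-1.53, adjusted p = 0.00155) and with weight loss (-1.92, adjusted p = 0.00112). With HFD Fosl1 (4.21), Fgfbp3 (2.57) and the feedback inhibitor Spry2 (1.48, adjusted p = 0.0325) also rose, and Klb (-3.80), Fgfrl1 (-2.09), Il17rd (-1.98), Fgf9 (-1.92), Plcg1 (-1.30), Etv5 (-1.21), Gab1 (-0.85) and Frs2 (-0.62) also fell. Fgf9 fell with weight loss as well (-2.07, adjusted p = 0.0204), where 5.76% of all genes were called. Adipocyte-marker RNA in macrophages was lower in H and HH than in chow, as given above, and its part in the fall of the co-receptor gene Klb was not tested. The shares of F13a1 or Mrc1 nuclei without Gpnmb divided the libraries in the same way as Fgf13 and Etv1 (90.6% to 96.6% in chow and CCH, 0.60% to 32.0% in the others), and their part in these macrophage changes was not tested.

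The genes whose levels ran most like each FGF gene were ranked by Pearson's r of log2(CPM + 1) over 65 class-by-library points, which share libraries and gates and carry no p. For Fgf1 they were Ptprd (0.88), Pak3 (0.86) and Abat (0.85), for Fgf2 Aldh1a1 (0.91), Slit3 (0.89) and Bmpr1a (0.89), and for Fgf7 Prrx2 (0.83), Lama2 (0.83, itself a progenitor marker of the gate) and Gpc6 (0.82). Fgf10 ran with Rai2 (0.88), Gm16263 (0.86, its opposite-strand neighbour) and Scn7a (0.86), and Fgf14 with Dtna (0.86), Pak3 (0.83) and Ptprd (0.82). Pid1 (0.83), Cyp27a1 (0.79) and Dapk1 (0.77) came first for Fgfr1, and Adgrg1 (0.78), Arhgef26 (0.76) and Samd5 (0.76) for Fgfr3. No gene ran closely with Fgfr2, for which Ino80dos (0.73), Lrrc4 (0.72) and Gm48383 (0.71) led.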

How the data were processed

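The authors deposited raw UMI counts per gene and barcode for 9 single-nucleus libraries of mouse epididymal adipose tissue, 1 per diet group and 5 pooled mice each. Per the methods and labels these counts were made with Cell Ranger 6.1.2 on the mm10 mouse reference with intronic reads included; the Seurat 4.1.0 steps that followed are not in the matrices. Intronic reads add to the counts of long genes. The Fgfr2 model of the annotation used here spans other loci, and which annotation the counting used was not checked. Groups were taken from the labels.

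Nuclei with 500 to 3000 genes and at most 40000 UMIs were kept. Totals exclude mitochondrial genes and Malat1. Nuclei were gated with 12 lists of 8 markers; no doublet caller was run, and the lead of 2 markers removes only nuclei with nearly as many markers of another class, so that doublets with fewer of them can remain. Of the gated nuclei, 24.7% were at the edge of the gate. Each class UMI total was the denominator of CPM, with exact Poisson and conditional 95% intervals for counting error only. The count tables were summed per library and class and tested with edgeR 4.0.16 (quasi-likelihood, TMM, low counts filtered, R 4.3.3) over 9 libraries and 5 diet states, called at a Benjamini-Hochberg adjusted p under 0.05. The fit was also run on simulated counts with a common spread and no differences of age or sequencing set. That run therefore cannot vouch for the calls made here. Libraries of one state differ in age and are single pools, so p-values measure the spread between these libraries only, and diet, age and sequencing set cannot be fully told apart. Class differences were tested by exact sign flips of log2(CPM + 1) in Python 3.11.15 (numpy 2.4.6, scipy 1.17.1, pandas 2.3.3). The alternatives were DESeq2 1.42.0, DESeq2-style size factors in edgeR, no filter, each library left out, the sequencing set as a term or one set alone, stricter and looser gates, no upper limit on genes, a minimum of 1000 genes and a pseudocount of 5; the purer adipocyte gate, the macrophage fit and the macrophage split were added after seeing the data.

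The members and lists were chosen with earlier results of these data known. The text covers all 8 genes, each with its main classes by library and the others of the 5 main classes by range, median or test, the genes of the 47-gene list that were called, and per FGF gene the 3 genes with the highest correlation among those with at least 1000 UMIs. The RefSeq promoter table (GRCm38.p6) gave the promoter windows.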

Additional observations from a re-analysis of the deposited data

Results flagged for a closer look

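In 10 cases the libraries of a diet state lay on one side of the chow range in one class and on the other side in another class. Lying apart from chow was common among the tested values of FGF genes by class. With HFD 9 were above the chow range, 15 below it and 14 overlapped it, and with weight loss 8, 5 and 25. The share over all genes was not computed, so the 10 cases are no result about these genes. The difference between the classes was not tested in any of the 10 cases, and the values are differences of log2 changes. For Fgf10 with HFD, H and HH were above chow in adipocytes and progenitors and below chow elsewhere: adipocytes differed from macrophages by 3.87, from endothelial nuclei by 3.31 and from mesothelial nuclei by 4.45, and progenitors differed from the same classes by 4.08, 3.52 and 4.66. The HFD change of Fgf10 in endothelial nuclei was not called, and Fgf10 in those of H rested on 1 UMI. Fgf1 and Fgf7 with HFD differed between progenitors and macrophages by 2.20 and 1.63. Of these Fgf1 and Fgf7 changes only that of macrophage Fgf1 was called with edgeR. Macrophage Fgf7 rested on 9, 3 and 3 UMIs in C, CC and CCC. Fgfr1 with weight loss was above the chow range in adipocytes (343 and 358 CPM) and in progenitors (431 and 419 CPM) and below it in macrophages (312 and 219.8 CPM), differences of 1.56 and 1.41. In progenitors, macrophages, endothelial and mesothelial nuclei the summed RNA of 8 adipocyte markers was also lower in H and HH than in chow (231 and 327 CPM against 435 to 1536 CPM in endothelial nuclei), and its part in the levels there was not tested.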

How the results depend on the processing

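Of 76 values of FGF genes in the fits, 15 were called, and 0 of these changed sign under any alternative run. Of the 61 others, 21 changed sign under some alternative and 17 were called under some, among them Fgf1 in adipocytes with HFD, which was 0.50 within one sequencing set. The cause was not tested. No paired analysis by replicate number was possible because the labels give none; a fit with age as a block was not run, and libraries of one age and set were compared as single pairs. Leaving out 1 library at a time, the genes called with HFD ran from 0 (without HH) to 4156 (without C) in adipocytes, from 563 to 3219 in progenitors, 79 to 702 in endothelial, 246 to 1084 in mesothelial nuclei and 2015 to 5353 in macrophages. With weight loss they ran from 0 to 471 in adipocytes, 89 to 412 in progenitors, 7 to 60 in endothelial, 16 to 151 in mesothelial nuclei and 468 to 1366 in macrophages.

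With the sequencing set in the model, calls with HFD were 804 in progenitors, 795 in endothelial nuclei and 2676 in macrophages, and calls with weight loss were 488 in adipocytes, 119 in progenitors, 22 in mesothelial nuclei and 479 in macrophages. Within one set, HFD gave 5987 in adipocytes, 4677 in progenitors, 1872 in endothelial and 1675 in mesothelial nuclei, and weight loss 317, 60 and 3 in adipocytes, progenitors and mesothelial nuclei and 273 in macrophages; the HFD fit within a set rests on 1 chow library. Without the filter on low counts, HFD gave 3449 in adipocytes, 3976 in progenitors and 921 in endothelial nuclei, and weight loss 629, 1407, 220 and 190 in adipocytes, progenitors, endothelial and mesothelial nuclei and 2215 in macrophages. DESeq2 called 368 with HFD in mesothelial nuclei, and with weight loss 304 in adipocytes, 526 in progenitors, 42 in endothelial and 32 in mesothelial nuclei. Without an upper limit on genes there were 3519 with HFD in adipocytes, and 7 and 13 with weight loss in adipocytes and endothelial nuclei. The stricter gate gave 563 with HFD in mesothelial nuclei, the looser gate 422 with weight loss in progenitors, and the purer adipocyte gate 14 with weight loss. Of the 16 values per pair of libraries, HCH and CCH had 1 apart under the stricter and 4 under the looser gate, and CCH and CC 5 without the upper limit. Mesothelial nuclei led progenitors in Fgf2 by 0.65 under the stricter gate and by 0.73 without CCC, neither past the threshold. Depth limits Fgfr3 and the low levels of ligands outside their main classes, which rest on few UMIs.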
